A study of Mus musculus with 6 samples.

Results

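Notch signalling genes were followed in bulk RNA sequencing of mouse prostate epithelium, in cells sorted by a genetic lineage marker. The 10 genes were chosen by symbol: the receptors Notch1, Notch2 and Notch3, the ligands Jag1, Jag2, Dll1 and Dlk2, and the targets Hes1, Hey1 and Nrarp. All 10 were among the 24498 genes of the count table, and all 10 passed the filter on low counts that left 13846 genes for testing. All animals were male. In the line labelled Nkx, the line's CreER(T2) driver allele was combined with an EYFP reporter at the Rosa26 locus, and in the line labelled Clu, a Clu-CreER(T2) allele was combined with a tdTomato reporter at the same locus. The Nkx intact group was Nkx-marked cells of intact males, the Nkx castrate group was the same marked population after castration at the age of 8 weeks, and the Clu intact group was Clu-marked cells of intact males. The mice of the study were between 7 and 13 weeks old. Tissue was taken 4 weeks after the age of castration, in intact males too, and only cells positive for the marker were sorted. CreER(T2) is a recombinase that acts only once its inducing drug is given, and when it was given is not stated in the sources used here. The driver allele decides which cells carry the marker, so Nkx and Clu groups differ in driver and reporter as well as in the cells marked. Each group held 2 libraries, named here by group and replicate number. No label ties a library to its own animal, so p-values reflect only how far these libraries spread, and that spread may be technical.

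Library totals lay between 10220118 and 17412874 counts. Values are given as CPM, a gene's counts scaled to a common library total, with totals adjusted by trimmed mean of M-values factors, and 1 count was worth 0.0561 to 0.0988 CPM. The labels were checked against the Clu and Epcam genes. Clu lay at 323 and 245 CPM (Nkx intact), 721 and 844 CPM (Nkx castrate) and 1808 and 1934 CPM (Clu intact), and the epithelial adhesion gene Epcam was at 336 CPM or more in all 6 libraries. The 10 basal epithelial markers summed to 5661 and 5807 CPM (Nkx intact), 5401 and 3351 CPM (Nkx castrate), and 3377 and 3527 CPM (Clu intact), with no marker at 0. The 13 smooth muscle and fibroblast markers summed to 2232 CPM in Nkx castrate 1 and to 560 to 767 CPM elsewhere. Summed endothelial markers (10 genes) came to 72 and 49.3 CPM, 426 and 65.9 CPM, and 1009 and 414 CPM in the 3 groups. Proximal luminal markers summed to 1024 and 1030 CPM, 2904 and 4096 CPM, and 8002 and 9088 CPM. Mitochondrial genes took 5.79% and 6.27%, 6.49% and 7.35%, and 9.42% and 9.20% of counts, and 18S ribosomal RNA 5.34% and 5.21%, 3.86% and 4.25%, and 2.25% and 2.91%. The part of these differences in the results was not tested. Fewer cells of a type and less RNA per cell cannot be told apart in such bulk samples.

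Notch signalling passes between touching cells. A ligand of the Jagged or Delta-like family on a cell binds a Notch receptor on its neighbour, the receptor is cleaved by an ADAM protease and then by gamma-secretase, and the freed intracellular domain joins RBPJ and Mastermind proteins in the nucleus to switch on target genes such as those of the Hes and Hey families. In the prostate epithelium, ligands and receptors are known to be unequally distributed between basal and luminal cells, and the pathway takes part in luminal differentiation and in the regrowth of the gland.

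The genome sequence before the transcription start is shown for Notch3, Jag2 and Dlk2, since these were the members that differed from Nkx intact in both of the other groups. Each line gives the 250 bases before the start, taken from RefSeq windows on build GRCm38.p6, on the strand of the gene, with every CG pair in capitals. The windows lie at chr17:32166891-32167140 on the minus strand for Notch3, chr12:112929496-112929745 on the minus strand for Jag2, and chr17:46297233-46297482 on the plus strand for Dlk2, the upstream one of its 2 annotated starts.
Notch3: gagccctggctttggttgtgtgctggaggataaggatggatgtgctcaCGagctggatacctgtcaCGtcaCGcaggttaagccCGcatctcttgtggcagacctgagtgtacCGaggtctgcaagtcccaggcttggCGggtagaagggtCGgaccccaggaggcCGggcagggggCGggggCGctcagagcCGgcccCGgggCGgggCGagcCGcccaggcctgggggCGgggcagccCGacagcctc
Jag2: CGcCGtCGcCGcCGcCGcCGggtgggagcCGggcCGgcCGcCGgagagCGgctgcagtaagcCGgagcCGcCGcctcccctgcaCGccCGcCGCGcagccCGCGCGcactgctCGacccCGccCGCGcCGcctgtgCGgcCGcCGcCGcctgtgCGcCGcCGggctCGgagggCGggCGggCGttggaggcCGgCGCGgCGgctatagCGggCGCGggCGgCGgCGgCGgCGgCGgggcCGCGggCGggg
Dlk2: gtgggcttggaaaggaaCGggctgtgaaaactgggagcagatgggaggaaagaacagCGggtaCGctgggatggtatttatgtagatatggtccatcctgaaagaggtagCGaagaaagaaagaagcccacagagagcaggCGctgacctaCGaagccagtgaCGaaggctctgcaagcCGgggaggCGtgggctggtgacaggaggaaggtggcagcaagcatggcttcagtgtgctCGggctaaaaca
The Jag2 window held 54 CG pairs, a number reached by 0.02% of the 32851 windows of that length in the table. The Notch3 window held 17, reached by 23.5% of windows, and the Dlk2 window held 10, reached by 37.8% (37 in the window of its other start), against a median of 6 over all windows. The core motif TGGGAA of RBPJ, searched on both strands, was in 0 of the 10 windows of the 8 members in the table and in 21.6% of all windows. Hes1 and Hey1 were not matched, so Nrarp was the only target among the members searched. The other windows belong to receptors and ligands, so the count says nothing of Notch targets as a class. The windows bear on letters only and say nothing of binding.

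Of the receptors, Notch3 and Notch1 rose with castration, and Notch3 and Notch2 were higher in Clu intact than in Nkx intact. Notch1, a receptor of many epithelia, was at 314 and 317 CPM (Nkx intact), 536 and 589 CPM (Nkx castrate), and 435 and 405 CPM (Clu intact). The libraries of the 3 groups did not overlap, with Nkx castrate highest and Nkx intact lowest. Notch1 rose 1.78-fold with castration (log2 fold change 0.83, SE 0.16, edgeR quasi-likelihood adjusted p = 0.0202), while Clu intact lay 1.33-fold above Nkx intact without passing the test (adjusted p = 0.155). Against Nkx castrate, the difference of Clu intact (log2 fold change -0.42, SE 0.16, edgeR adjusted p = 0.115) did not pass either. The castration call of Notch1 was lost without either Nkx intact library (adjusted p = 0.162 and 0.175, edgeR) and without either Clu intact library (adjusted p = 0.0663 and 0.0685, edgeR), at log2 fold changes between 0.82 and 0.84. It was also lost with only the 4 libraries compared (adjusted p = 0.062), a fit in which Clu intact passed against Nkx intact (adjusted p = 0.038). Fits without a library left its group with a single one, which was assumed to vary like the rest. Notch1 in Clu intact also passed against Nkx intact without either Nkx castrate library (adjusted p = 0.0391 and 0.0413, edgeR), and it was lower than in Nkx castrate in DESeq2 (adjusted p = 0.0407) and without Nkx castrate 1 (adjusted p = 0.0403).

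Notch2, the other receptor abundant in these cells, was at 167 and 177 CPM (Nkx intact), 169 and 159 CPM (Nkx castrate), and 268 and 295 CPM (Clu intact). Both Clu intact libraries lay above all 4 Nkx libraries, and the Nkx groups overlapped. Notch2 was 1.64-fold higher in Clu intact than in Nkx intact (log2 fold change 0.71, SE 0.16, edgeR adjusted p = 0.0271) and 1.72-fold higher than in Nkx castrate (log2 fold change 0.78, SE 0.16, adjusted p = 0.0142), and the castration difference was -0.07 on the log2 scale (SE 0.16, adjusted p = 0.86). Without any 1 of the 4 libraries compared, the call against Nkx intact was lost (edgeR adjusted p from 0.129 to 0.217), and without either Clu intact library the call against Nkx castrate was lost (adjusted p = 0.0743 and 0.138).

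Notch3, a receptor also known from vascular mural cells, had the largest fold differences from Nkx intact of the 3 member receptors. It was at 12.2 and 7.90 CPM (Nkx intact), 51.7 and 77.3 CPM (Nkx castrate), and 57.9 and 52.7 CPM (Clu intact). Every Nkx castrate and Clu intact library lay above both Nkx intact libraries, and the Nkx castrate and Clu intact groups overlapped. Notch3 rose 6.39-fold with castration (log2 fold change 2.68, SE 0.31, edgeR adjusted p = 0.00285) and was 5.48-fold higher in Clu intact than in Nkx intact (log2 fold change 2.45, SE 0.30, adjusted p = 0.00283). Between Clu intact and Nkx castrate its log2 fold change was -0.22 (SE 0.28, adjusted p = 0.63). Of the smooth muscle markers, Acta2, Myh11, Cnn1 and Des were higher in both castrate libraries than in Nkx intact, and Tagln overlapped. Myh11, the smooth muscle myosin heavy chain, was at 64.7 and 44.8 CPM (Nkx intact), 923 and 250 CPM (Nkx castrate), and 223 and 90.4 CPM (Clu intact). Acta2, smooth muscle actin, was at 28.4 and 13.2 CPM, 333 and 98.5 CPM, and 76.4 and 31.0 CPM. Of the 13 smooth muscle and fibroblast markers, Acta2, Myh11, Cnn1, Des and Lum were called higher with castration and 0 were called lower. Of all tested genes, 4.02% were called higher and 4.59% lower. Col1a1, Col1a2 and Col3a1 were uncalled but lower in both castrate libraries than in Nkx intact. Col1a1 was at 46.3 and 6.21 CPM against 79.2 and 72.8 CPM. The sum of the list was 2232 and 560 CPM in Nkx castrate against 767 and 632 CPM in Nkx intact. Nkx castrate 1 had more Myh11 and Acta2 but less Notch3 than Nkx castrate 2. The part of smooth muscle cells and fibroblasts in the Notch3 results was not tested. Without Nkx castrate 1 the log2 fold change of Notch3 was 2.94, and without Nkx intact 2 it was 2.40 with an adjusted p of 0.0505 (edgeR).

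**Figure D1:**
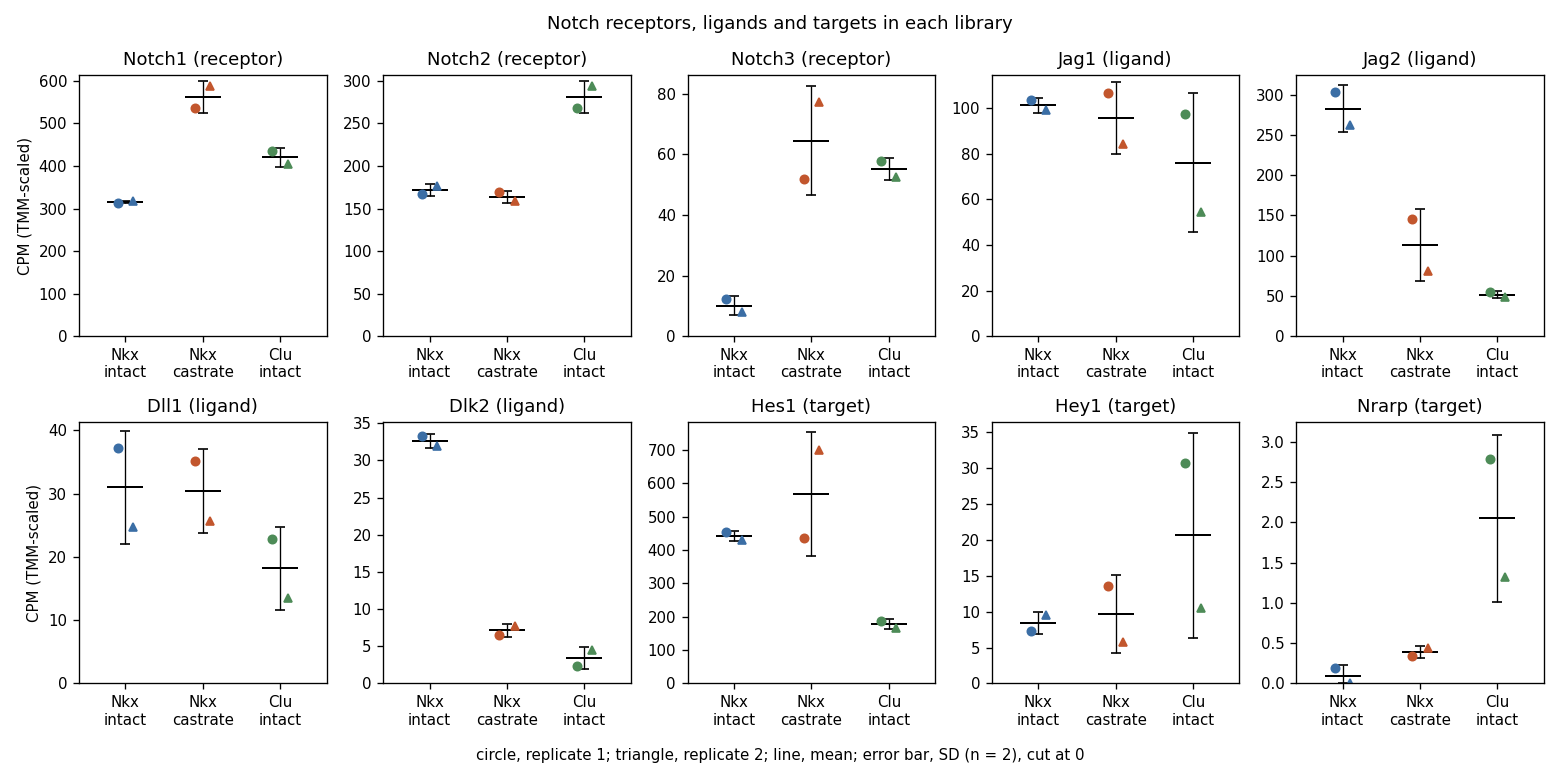
CPM of each of the 10 members in the 6 libraries, by group, on linear axes from 0 that differ between panels. Circles are replicate 1, triangles replicate 2, lines the mean and error bars the SD of 2 libraries. Notch3 lies at 12.2 CPM or less in Nkx intact and at 51.7 CPM or more elsewhere, and Dlk2 lies at 31.9 CPM or more in Nkx intact and at 7.76 CPM or less elsewhere.

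Per kilobase of annotated exon, Notch1 was the most abundant receptor in every library. Its level was 22.2 ± 0.193 CPM per kb (SD, n = 2) in Nkx intact, 39.5 ± 2.63 (Nkx castrate) and 29.5 ± 1.52 (Clu intact), and that of Notch2 was 15.9 ± 0.647, 15.2 ± 0.677 and 26.1 ± 1.73 CPM per kb. The levels of Notch1, Notch2, Notch3 and Notch4 summed to 39.4 and 39.9 CPM per kb (Nkx intact), 61.2 and 65.8 (Nkx castrate), and 67.1 and 64.4 (Clu intact). Notch1 made up 55.9% of that sum in both Nkx intact libraries, 61.5% and 62.8% (Nkx castrate), and 45.6% and 44.1% (Clu intact). Notch3 made up 3.84% and 2.45%, then 10.4% and 14.5%, then 10.7% and 10.1%. The share of Notch2 was 39.2% and 41% (Nkx intact), 25.6% and 22.4% (Nkx castrate), and 37.1% and 42.4% (Clu intact). In Clu intact 2 Notch1 stood at 28.4 and Notch2 at 27.3 CPM per kb, so their order there is uncertain. Exons on the opposite strand cover 9.76% of the exon length of Notch1 and 6.03% of that of Notch3. Exons of other genes on the same strand cover 5.02% of that of Notch2. Exon lengths come from GENCODE release M21, which is on an earlier build than the counts, so these levels are approximate.

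Of the ligands, Jag2 and Dlk2 fell with castration and were lower in Clu intact than in Nkx intact, and Jag1 and Dll1 passed no test. Jag2, a Jagged-family ligand, was at 303 and 262 CPM (Nkx intact), 145 and 81.2 CPM (Nkx castrate), and 54.3 and 48.3 CPM (Clu intact). The 3 groups did not overlap and stood in that order. Jag2 fell 2.49-fold with castration (log2 fold change -1.32, SE 0.27, edgeR adjusted p = 0.0245), was 5.50-fold lower in Clu intact than in Nkx intact (log2 fold change -2.46, SE 0.28, adjusted p = 0.00215), and was 2.21-fold lower in Clu intact than in Nkx castrate (log2 fold change -1.14, SE 0.27, adjusted p = 0.0256). The castration call was lost without either Nkx intact library (edgeR adjusted p = 0.167 and 0.143) and without either Clu intact library (adjusted p = 0.0557 and 0.0616), and the call between Clu intact and Nkx castrate was lost without any 1 of those same 4 libraries (adjusted p from 0.0685 to 0.2), while the call between Clu intact and Nkx intact held without each library in turn. With only the 4 libraries compared, the castration call and the call between Clu intact and Nkx castrate were lost too (adjusted p = 0.0632 and 0.071). Leaving out Nkx castrate 1 or Nkx castrate 2 gave a log2 fold change with castration of -1.80 or -0.96.

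Dlk2, a Delta-like protein without the canonical receptor-binding domain of Delta and Jagged ligands, was at 33.3 and 31.9 CPM (Nkx intact), 6.57 and 7.76 CPM (Nkx castrate), and 2.36 and 4.52 CPM (Clu intact). Again the groups did not overlap, and both of the other groups lay far below Nkx intact. Dlk2 fell 4.55-fold with castration (log2 fold change -2.19, SE 0.37, edgeR adjusted p = 0.0115) and was 9.49-fold lower in Clu intact than in Nkx intact (log2 fold change -3.25, SE 0.40, adjusted p = 0.0026). Between Clu intact and Nkx castrate the log2 fold change was -1.06 (SE 0.38, adjusted p = 0.0947). The castration call was lost without either Nkx intact library (edgeR adjusted p = 0.107 and 0.116).

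Basal epithelial marker RNA moved with these ligands in part. Trp63, the transcription factor of basal cells, was at 249 and 238 CPM (Nkx intact), 61.5 and 34.7 CPM (Nkx castrate), and 13.2 and 24.6 CPM (Clu intact), whereas the basal keratin Krt15 lay between 981 and 1299 CPM in all 6 libraries. Of the 10 basal markers, 2 were called lower and 0 higher with castration, against 4.59% and 4.02% of all tested genes. In Clu intact against Nkx intact, 4 were called lower and 0 higher, against 5% and 6.29% of all tested genes. With castration, Krt14, Col17a1 and Dst overlapped between the groups. Itga6 was higher in both castrate libraries, at 253 and 265 CPM against 250 and 227 CPM. Per 1000 CPM of the summed basal markers, Jag2 stood at 53.5 and 45.1 CPM (Nkx intact), 26.9 and 24.2 (Nkx castrate), and 16.1 and 13.7 (Clu intact). For Dlk2 these values were 5.88 and 5.49, 1.22 and 2.32, and 0.7 and 1.28. Krt15 and Dst make up much of that sum. Against Trp63 alone, the ratio of Jag2 ran the other way, at 1.22 and 1.10 (Nkx intact), 2.36 and 2.34 (Nkx castrate), and 4.13 and 1.96 (Clu intact), and that of Dlk2 was 0.134 and 0.134, 0.107 and 0.223, and 0.179 and 0.183. Whether the ligands lay lower relative to basal marker RNA so depended on the marker, and the part of basal cells in these results was not tested.

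Jag1, the other Jagged ligand, was at 104 and 98.9 CPM (Nkx intact), 107 and 84.3 CPM (Nkx castrate), and 97.5 and 54.5 CPM (Clu intact). All 3 groups overlapped with the next in order, apart from Clu intact and Nkx intact, and the log2 fold changes were -0.08 (SE 0.28), -0.41 (SE 0.28) and -0.33 (SE 0.28) for castration, for Clu intact against Nkx intact, and then against Nkx castrate, with edgeR adjusted p of 0.901, 0.404 and 0.458. Dll1, a Delta-like ligand, was at 37.3 and 24.7 CPM, 35.1 and 25.7 CPM, and 22.9 and 13.5 CPM. Its Clu intact libraries were the lowest of the 6, at log2 fold changes of -0.77 (SE 0.34, adjusted p = 0.208) and -0.74 (SE 0.34, adjusted p = 0.18) against Nkx intact and Nkx castrate, and the castration difference was -0.03 (SE 0.34, adjusted p = 0.978). An exon of an antisense transcript covers 20.6% of the annotated exon length of Dll1. Reads of the 2 strands there can be told apart only if strand was used in counting, which is not given in the sources used here.

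Per kilobase of exon, Jag2 was the most abundant of these ligands in Nkx intact at 40.5 ± 4.17 CPM per kb (SD, n = 2), followed by Jag1 at 17.4 ± 0.562 and Dlk2 at 15.4 ± 0.463. In Nkx castrate Jag1 and Jag2 stood at 16.4 ± 2.71 and 16.2 ± 6.47 CPM per kb, closer than their spread, and in Clu intact at 13 ± 5.23 and 7.36 ± 0.617. The summed level of Jag1, Jag2, Dll1, Dll4 and Dlk2 was 86.5 and 76.1 CPM per kb (Nkx intact), 57.7 and 37.2 (Nkx castrate), and 40.5 and 25.6 (Clu intact). Jag2 made up 50.3% and 49.4% of that sum in Nkx intact, 36.1% and 31.4% (Nkx castrate), and 19.3% and 27% (Clu intact). The receptor sum was lowest, and the ligand sum highest, in Nkx intact.

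**Figure D2:**
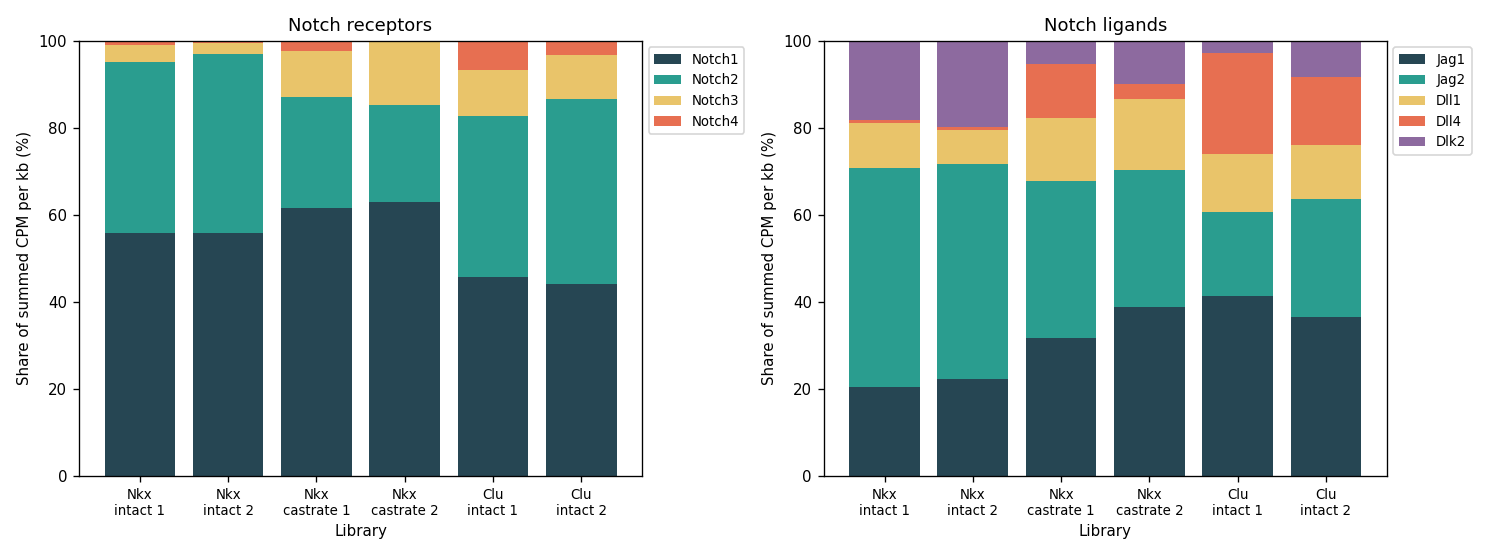
Share of each gene in the summed CPM per kb of 4 Notch receptors (left) and of 5 ligands (right), 1 stacked bar for each library. Notch3 takes 3.84% or less of the receptor sum in Nkx intact and 10.1% or more elsewhere, and Jag2 takes 49.4% or more of the ligand sum in Nkx intact and 36.1% or less elsewhere.

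Among the targets, Hes1 was lower in Clu intact than in either Nkx group, and Hey1 and Nrarp were not called in edgeR with all libraries and the filter on low counts. Hes1, a repressor of the basic helix-loop-helix class and a direct target of the pathway in many tissues, was at 454 and 432 CPM (Nkx intact), 438 and 700.2 CPM (Nkx castrate), and 189 and 167 CPM (Clu intact). Both Clu intact libraries lay below all 4 Nkx libraries, and the Nkx groups overlapped, with Nkx castrate 2 above the rest. Hes1 was 2.49-fold lower in Clu intact than in Nkx intact (log2 fold change -1.32, SE 0.24, edgeR adjusted p = 0.0126) and 3.20-fold lower than in Nkx castrate (log2 fold change -1.68, SE 0.24, adjusted p = 0.00374). The call against Nkx intact was lost without any 1 of the 4 libraries compared (adjusted p from 0.085 to 0.13, edgeR), and that against Nkx castrate without Clu intact 2 (adjusted p = 0.0587). With castration the log2 fold change of Hes1 was 0.36 (SE 0.24, edgeR adjusted p = 0.407). It was 0.66 and passed (adjusted p = 0.0157) without Nkx castrate 1, and it was -0.02 without Nkx castrate 2.

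Hey1, a related repressor, was at 7.37 and 9.48 CPM (Nkx intact), 13.5 and 5.84 CPM (Nkx castrate), and 30.7 and 10.5 CPM (Clu intact). Clu intact 1 stood apart from the other 5 libraries, and it also had the highest endothelial marker sum, 1009 CPM against 414 CPM in Clu intact 2. Per 1000 CPM of that sum, Hey1 was uneven and lowest in Clu intact. It stood at 102 and 192 CPM (Nkx intact), 31.8 and 88.6 (Nkx castrate), and 30.4 and 25.45 (Clu intact). The part of endothelial cells in the Hey1 level was not tested. The log2 fold change of Clu intact against Nkx intact was 1.29 (SE 0.59, edgeR adjusted p = 0.212), 1.88 without Clu intact 2 and 0.33 without Clu intact 1, and it passed with no filter on low counts (adjusted p = 0.0217). Against Nkx castrate it was 1.09 (SE 0.58, adjusted p = 0.238), and without Nkx castrate 1 it was 1.82 and passed (adjusted p = 0.0469). The castration difference was 0.21 (SE 0.58, adjusted p = 0.884).

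Nrarp, a small ankyrin-repeat protein that limits the signal as feedback, was close to the limit of detection. It had 2 and 0 counts in Nkx intact, 6 and 6 counts in Nkx castrate, and 33 and 14 counts in Clu intact, or 0.191 and 0, 0.337 and 0.444, and 2.78 and 1.32 CPM. It passed the filter on low counts through the Clu intact libraries, so its place among the tested genes is no separate evidence. The 3 groups did not overlap. The pooled ratio of Clu intact to Nkx intact was 21.5 (exact 95% interval for counting error 5.63 to 183), and edgeR, which takes the spread between libraries into account, gave an adjusted p of 0.117, and 0.0492 with only the 4 libraries compared. The annotated exons of Nrarp lie under those of an antisense transcript over 79.4% of their length, so its counts are uncertain. The ratio to Nkx castrate was 5.46 (exact 95% interval 2.85 to 11.3, edgeR adjusted p = 0.24), and that of Nkx castrate to Nkx intact was 3.94 (exact 95% interval 0.877 to 36.2, edgeR adjusted p = 0.505).

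Counted over the 10 members, 2 rose and 2 fell with castration, with 6 uncalled, against 8.61% of all 13846 tested genes called in that comparison (4.02% higher and 4.59% lower). The median log2 fold change was 0.09 for the members and 0.05 for all tested genes. In Clu intact against Nkx intact, 2 members were higher and 3 lower, against 11.3% of genes called (6.29% higher and 5% lower), with medians of 0.00014 for the members and -0.0078 for all genes. In Clu intact against Nkx castrate, 1 member was higher and 2 were lower, against 16.9% of genes called (8.82% higher and 8.1% lower), with medians of -0.37 and -0.003. The libraries of the 2 groups did not overlap for 5 members with castration (3 higher, 2 lower), where 49.9% of tested genes did not (25.4% higher, 24.6% lower). The same held for all 10 members between Clu intact and Nkx intact (5 higher, 5 lower), against 63.2% of genes (31.9% higher, 31.3% lower), and for 7 between Clu intact and Nkx castrate (2 higher, 5 lower), against 61.4% (31.5% higher, 30% lower). Nrarp is among the higher members in each of these counts of libraries that did not overlap. It passed the filter on low counts through the Clu intact libraries. Its place in the counts and medians of the Clu intact comparisons is thus no separate evidence. Both comparisons with Nkx intact share its 2 libraries, so their fold changes are not independent of each other. With castration and all libraries, 4 members had an unadjusted p under 0.05 in edgeR, as did 3262 of the 13846 tested genes. DESeq2 and limma-voom each called 2 members higher and 2 lower. The number of members called moved when a library was left out, and so did the number over all genes.

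**Figure D3:**
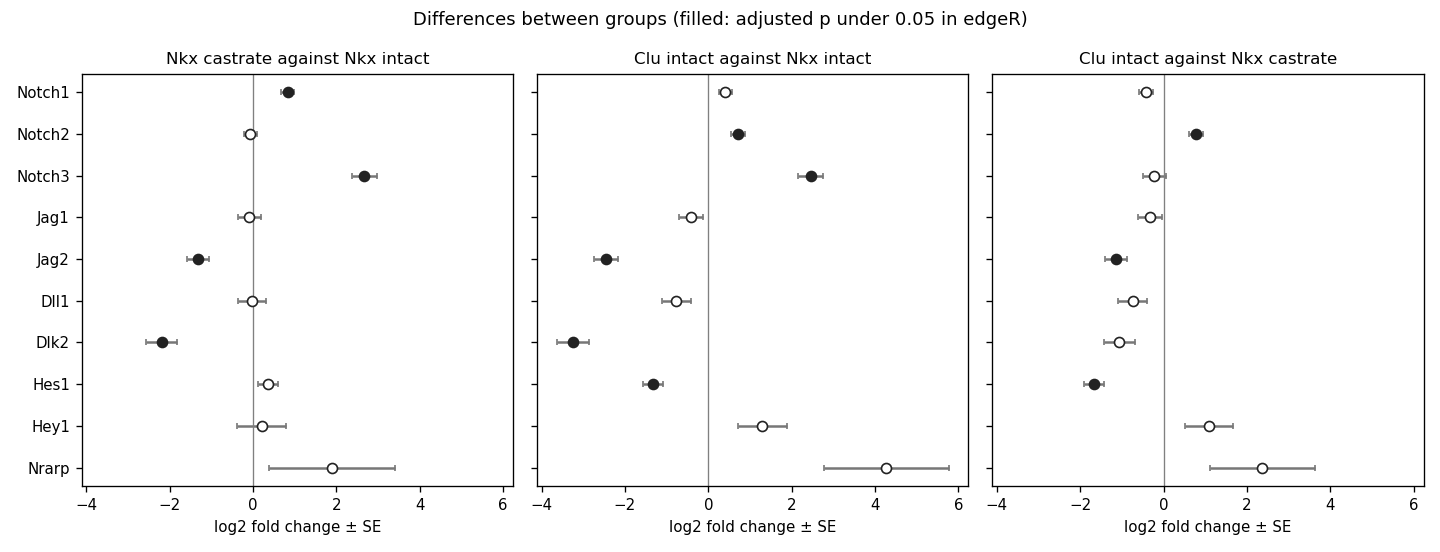
Log2 fold changes (points) with their SE (bars) of the 10 members in the 3 comparisons, positive where the first-named group is higher. Filled points have an adjusted p under 0.05 in edgeR. Jag2 lies left of 0 and filled in all 3 panels, Notch3 is filled on the right in the 2 comparisons with Nkx intact, and Nrarp, the member with the fewest counts, has the widest bars.

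The other genes of the pathway were taken from 7 lists of receptors, ligands, receptor glycosylation, receptor cleavage, the nuclear complex, endocytosis and ubiquitin regulators, and targets. Of the 49 listed genes that are not members, all were in the count table and 43 were tested. With castration 5 rose and 1 fell, in Clu intact against Nkx intact 7 were higher and 1 lower, and in Clu intact against Nkx castrate 5 were higher and 7 lower. The shares of all tested genes called in these comparisons were 8.61%, 11.3% and 16.9%. The median log2 fold changes of the listed genes were 0.06, -0.15 and -0.06, against 0.05, -0.0078 and -0.003 for all tested genes. These counts ranged from 0 to 7 higher and 0 to 2 lower, from 1 to 11 and 0 to 7, and from 2 to 9 and 3 to 11 when each library was left out in turn.

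The remaining receptor and ligands were at 36.4 CPM or less in every library. Notch4, a receptor best known from endothelium, was at 3.35 and 1.98 CPM (Nkx intact), 12.1 and 1.63 CPM (Nkx castrate), and 36 and 17.5 CPM (Clu intact). Dll4, a Delta-like ligand of sprouting vessels, was at 2.68 and 2.37, 27.6 and 5.03, and 36.4 and 15.4 CPM. Both were higher in Clu intact than in Nkx intact (log2 fold changes 3.32, SE 0.88, and 3.35, SE 0.81, edgeR adjusted p = 0.0494 and 0.0361). The castration difference of Dll4 did not pass (log2 fold change 2.69, SE 0.80, edgeR adjusted p = 0.0829). Of 9 alternatives other than leaving out a library, 3 called it, DESeq2 among them (adjusted p = 0.00349). Both genes and the endothelial marker sum were highest in Clu intact 1, and Notch4 stood between 24.7 and 46.5 CPM, and Dll4 between 36 and 76.2 CPM, per 1000 CPM of the endothelial sum. Of the 10 endothelial markers, 5 were called higher in Clu intact than in Nkx intact, against 6.29% of all tested genes. Their part in the Notch4 and Dll4 results was not tested. They include Cdh5, the adhesion molecule of endothelial junctions, at 12.1 and 4.35 CPM against 213 and 73.5 CPM. The calls of Notch4 and Dll4 were lost without any 1 of the 4 libraries compared (edgeR adjusted p from 0.118 to 0.279 and from 0.0789 to 0.234) and in limma-voom (adjusted p = 0.127 and 0.214), and that of Notch4 also with library totals as the scaling (adjusted p = 0.0621, edgeR) and with a filter at a mean of 5 CPM (adjusted p = 0.0562). Dlk1 and Dner were at 3.95 CPM or less in every library and were not called, and Dll3, at 0.281 CPM or less, was not tested.

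Dtx4 and Neurl1b, both encoding ubiquitin ligases tied to Notch trafficking, were higher in both other groups than in Nkx intact. Dtx4, of the Deltex family, was at 22.9 and 18 CPM (Nkx intact), 97.6 and 157 CPM (Nkx castrate), and 139 and 149 CPM (Clu intact). It rose 6.24-fold with castration (log2 fold change 2.64, SE 0.27, edgeR adjusted p = 0.00195) and was 7.04-fold higher in Clu intact (log2 fold change 2.82, SE 0.27, adjusted p = 0.00103), with a log2 fold change of 0.17 between Clu intact and Nkx castrate (adjusted p = 0.672). Its castration call was lost without Nkx intact 2 (adjusted p = 0.05, log2 fold change 2.48). Neurl1b, of the Neuralized family, went from 3.06 and 3.75 CPM (Nkx intact) to 12.3 and 22.8 CPM (Nkx castrate), and was at 24.3 and 27.4 CPM (Clu intact). It rose 5.14-fold (adjusted p = 0.0104, edgeR) and was 7.57-fold higher in Clu intact (adjusted p = 0.00407), and both calls were lost without either Nkx intact library (adjusted p from 0.056 to 0.11), the first also in limma-voom (adjusted p = 0.0702). Itch, another ubiquitin ligase, was 1.53-fold higher in Clu intact than in Nkx castrate (adjusted p = 0.0453), and Dtx3 was 3.28-fold lower (adjusted p = 0.023). The call of Itch was lost without any library other than Nkx castrate 2, and that of Dtx3 without either Nkx intact library or Clu intact 2. With only the 4 libraries compared, both calls were lost too (edgeR adjusted p = 0.101 and 0.066).

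Heyl and Hes6 parted the groups in other ways than Hes1 did. Heyl, a Hey-family repressor, was at 4.30 and 2.37 CPM (Nkx intact), 17.3 and 25.5 CPM (Nkx castrate), and 1.18 and 1.88 CPM (Clu intact). It rose 6.39-fold with castration (log2 fold change 2.68, SE 0.49, edgeR adjusted p = 0.0162) and was 13.9-fold lower in Clu intact than in Nkx castrate (log2 fold change -3.80, SE 0.53, adjusted p = 0.00315). The castration call was lost without either Nkx intact library (adjusted p = 0.0764 and 0.144). The smooth muscle markers Acta2, Myh11, Cnn1 and Des rose in the same comparison. Myh11 was at 923 and 250 CPM in the castrate libraries against 64.7 and 44.8 CPM in Nkx intact. Nkx castrate 1 had more Myh11 and Acta2 but less Heyl than Nkx castrate 2. Tagln was not called, and the uncalled Col1a1, Col1a2 and Col3a1 were lower in both castrate libraries. The part of smooth muscle cells and fibroblasts in the Heyl result was not tested. Hes6, which is known to counteract Hes1, was at 11.9 and 12.6 CPM, 5.78 and 5.77 CPM, and 28.7 and 31 CPM. Its 2.12-fold fall with castration did not pass (edgeR adjusted p = 0.0509). Of 9 alternatives other than leaving out a library, 4 called that fall, DESeq2 among them (adjusted p = 0.0205). Hes6 was higher in Clu intact than in Nkx intact (2.44-fold, edgeR adjusted p = 0.022) and than in Nkx castrate (5.16-fold, adjusted p = 0.00175). The former call was lost without any 1 of the 4 libraries compared (adjusted p from 0.124 to 0.213). Bhlhe40, a repressor with many inputs, was 2.01-fold lower in Clu intact than in Nkx castrate (edgeR adjusted p = 0.0388). The call was lost with library totals as the scaling (adjusted p = 0.0611) and with only the 4 libraries compared (adjusted p = 0.0933). It was also lost without any 1 of the Nkx intact or Clu intact libraries. Hey2 was at 1.58 CPM or less in every library and was not called, Hes5 and Helt had no count, and Hes2, Hes3 and Hes7 were not tested.

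**Figure D4:**
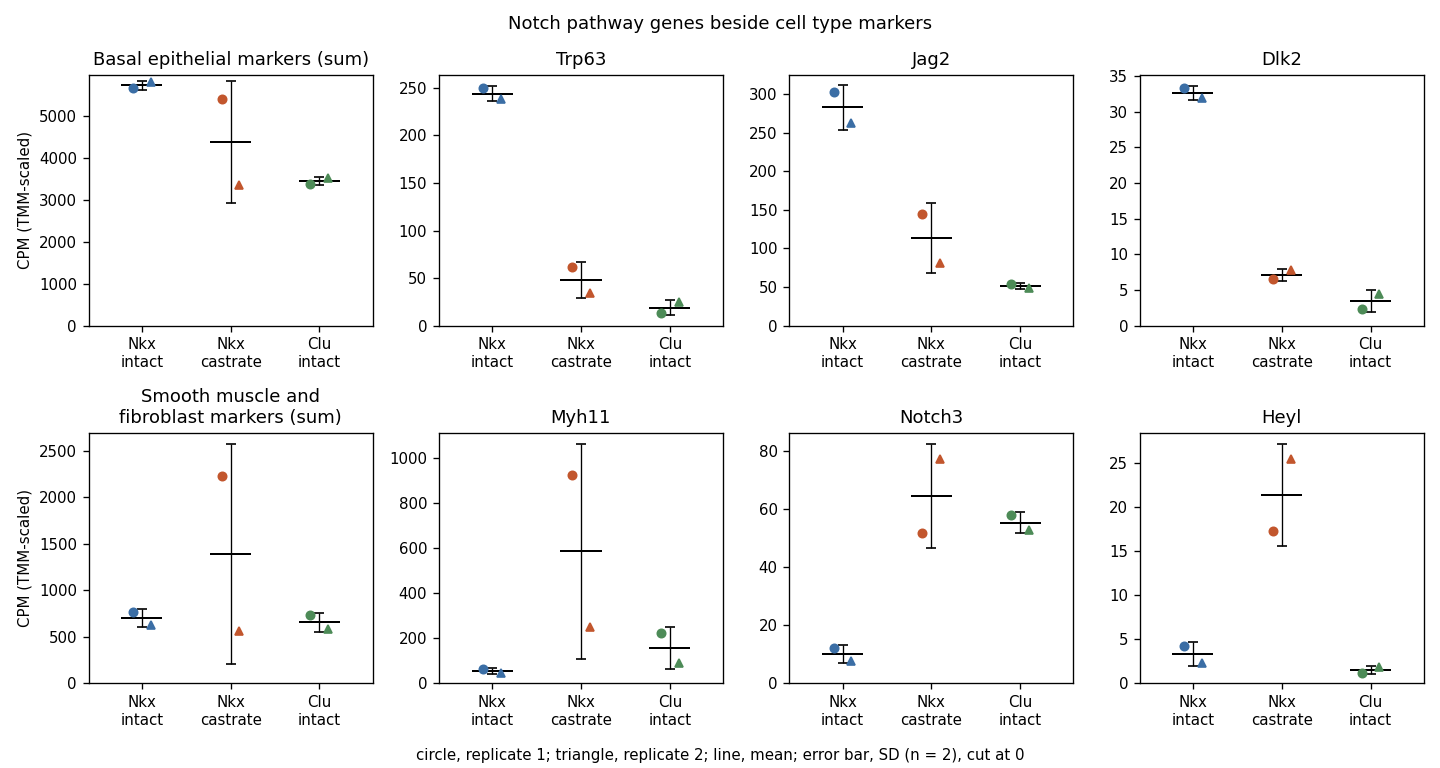
CPM in the 6 libraries of the summed basal markers and Trp63 beside Jag2 and Dlk2 (top), and of the summed smooth muscle and fibroblast markers and Myh11 beside Notch3 and Heyl (bottom), on linear axes from 0. Circles are replicate 1, triangles replicate 2, lines the mean and error bars the SD of 2 libraries. Trp63, like Jag2 and Dlk2, is highest in Nkx intact. Myh11, like Notch3 and Heyl, is higher in both castrate libraries than in Nkx intact. Nkx castrate 1 lies above Nkx castrate 2 in Myh11 and below it in Notch3 and Heyl. In the summed smooth muscle and fibroblast markers, Nkx castrate 1 lies above Nkx intact and Nkx castrate 2 below it.

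Of the 9 genes of receptor cleavage, 1 fell with castration, 2 were higher and 1 lower in Clu intact than in Nkx intact, and 3 were higher and 1 lower in Clu intact than in Nkx castrate, where 8.61%, 11.3% and 16.9% of all tested genes were called in either direction. Adam10 and Adam17, which encode ADAM proteases, were 1.93-fold and 2.20-fold higher in Clu intact than in Nkx intact (edgeR adjusted p = 0.0481 and 0.0164). They were 1.91-fold and 2.67-fold higher in Clu intact than in Nkx castrate (adjusted p = 0.0382 and 0.00533). Furin, the convertase of the receptor precursor, was 2.68-fold and 3.15-fold lower (adjusted p = 0.00349 and 0.00142), at 128 and 110 CPM (Clu intact) against 284 CPM or more in the 4 Nkx libraries. Ncstn, the gamma-secretase subunit nicastrin, fell 1.96-fold with castration from 162 and 160 CPM to 71.1 and 93.4 CPM (adjusted p = 0.0189), and was 2.63-fold higher in Clu intact than in Nkx castrate (adjusted p = 0.00279). The Mastermind coactivator Maml3 rose 2.17-fold with castration (adjusted p = 0.0133). Maml1 and Maml3 were 1.95-fold and 2.86-fold lower in Clu intact than in Nkx castrate (adjusted p = 0.0141 and 0.00257). Rbpj itself, the DNA-binding partner of all Notch receptors, was at 44.9 and 50.1 CPM, 71.4 and 35.6 CPM, and 27.5 and 26.2 CPM and was not called. Of the 5 genes of receptor glycosylation, 0 were called in any comparison by edgeR, DESeq2 or limma-voom, with 1, 1 and 0 at an unadjusted p under 0.05 in edgeR.

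Leaving out libraries ended many of these smaller calls. With castration, Maml3 and Ncstn lost theirs without either Nkx intact library (edgeR adjusted p from 0.112 to 0.157), and Ncstn also without either Clu intact library (adjusted p = 0.0516 and 0.0557). In Clu intact against Nkx intact, Adam10 and Adam17 lost theirs without any 1 of the 4 libraries compared (adjusted p from 0.0893 to 0.269), Adam10 also in limma-voom (adjusted p = 0.0534), and Furin without Nkx intact 1 or Clu intact 2 (adjusted p = 0.0511 and 0.0595). In Clu intact against Nkx castrate, Adam10 lost its call without any Nkx intact or Clu intact library and with only the 4 libraries compared (edgeR adjusted p = 0.0993), Maml1 without either Clu intact library, and Adam17 without Clu intact 2.

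**Figure D5:**
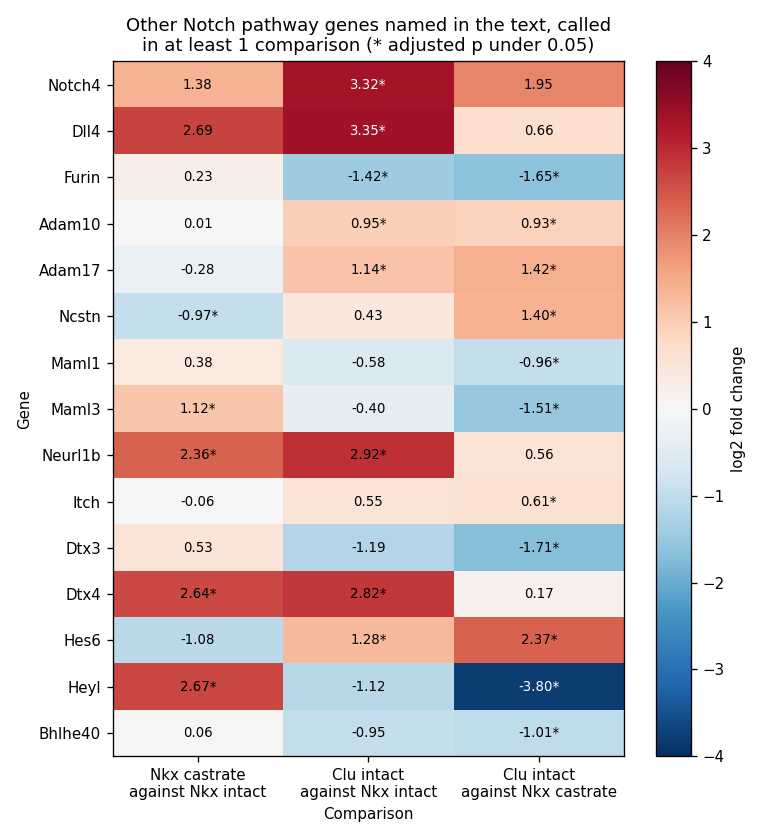
Log2 fold changes (colour and number) of 15 listed pathway genes outside the members that were called in at least 1 of the 3 comparisons, with an asterisk where the adjusted p was under 0.05 in edgeR. Dtx4 and Neurl1b are higher in both comparisons with Nkx intact, and Heyl is higher in Nkx castrate than in either other group.

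The tested genes whose level followed a called member most closely over the 6 libraries were taken among 9030 genes with a mean of at least 10 CPM. The correlations are descriptions with no test, over points that share their group and library. Dlk2 was followed by Nampt (Pearson r = 0.9998 on log2 CPM, n = 6), an enzyme of NAD synthesis, at 117 and 114, 69.9 and 74.7, and 51.8 and 62.6 CPM, and by Cp, the gene of ceruloplasmin (r = 0.994), at 252 and 252, 67.2 and 69.6, and 37 and 53.8 CPM. Notch3 was followed by Bcl6, a transcriptional repressor (r = 0.995), at 24.6 and 15.3, 77.6 and 107, and 76.9 and 66.3 CPM, and by Zfp146 (r = 0.993) and Dtx4 (r = 0.987). Jag2 was followed by Deaf1 (r = 0.995), by Arc, an immediate early gene (r = 0.994), which ran from 1916 and 1580 CPM (Nkx intact) to 300.2 and 285 CPM (Clu intact), and by Ptpn14 (r = 0.993). For Notch1 the closest were Lzts2, Tmpo and Grhl1 (r from 0.993 to 0.998), for Notch2 Mroh4, Anxa11 and Far1 (r from 0.992 to 0.994), and for Hes1 Nhsl1, Dtd1 and Ppp1r12a (r from 0.993 to 0.997).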

How the data were processed

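The deposited table holds raw counts by gene symbol with a column per library, and the unit was checked from the values, whole numbers with differing totals. Per the labels' protocols, libraries were made from 2 ng of RNA with a strand-marking pico input kit. The submitters' processing notes name the tools FastQC (0.11.9), STAR (2.7.9a) and Subread (2.0.1, featureCounts) and the build GRCm39. Annotation release, strand setting and the handling of multiply aligned reads: not given in the sources used here.

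In R 4.3.3, genes were filtered (filterByExpr), scaled (TMM factors 0.945 to 1.04) and fitted with edgeR 4.0.16 glmQLFit, with a mean for each of the 3 groups over all 6 libraries and 3 residual degrees of freedom. The whole table was fitted, and each of the 3 contrasts was tested two-sided by the quasi-likelihood F statistic, with p-values adjusted by Benjamini-Hochberg over 13846 genes and a threshold of 0.05. SEs are the log2 fold change over the root of F. The fit was also run on counts simulated with its own estimates of spread, which cannot show that the calls hold in these data. Alternatives were other scalings and filters, DESeq2 1.42.0, limma-voom (limma 3.58.1), the compared groups only, a replicate block and each library left out with the gene set kept.

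The members, lists and naming rules were chosen with earlier results of these data known. Named were all members, listed pathway genes called in any comparison, the remaining receptors, ligands and Hes6, Hey2 and Heyl, some cell type markers, and for each called member the 3 genes of highest correlation. Intervals cover counting error only. The 6 marker lists were basal, luminal, proximal luminal, endothelial, stromal and leukocyte. The luminal, proximal luminal and leukocyte sums ran from 7146 to 11426, from 1024 to 9088 and from 21.2 to 152 CPM. Lengths were matched by symbol for all 59 pathway genes. Some genes of the lists are counted in list totals but not reported by name here. Ratios to Trp63 were added after its values were seen.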

Additional observations from a re-analysis of the deposited data

How the results depend on the processing

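No result named here reversed a called direction. Among the 10 members, 409 of 447 values in other settings kept their side of the threshold, 29 calls were lost and 9 were gained. With castration, 2 members higher and 2 lower became 1 and 1 with only the 4 libraries compared, and the counts over all genes (556 higher, 636 lower) became 289 and 382 there, 976 and 955 in DESeq2, and 1197 and 1103 without a low count filter. In Clu intact against Nkx intact, the 2 higher members became 4 with only the 4 libraries compared, and the counts over all genes (871 higher, 692 lower) became 1772 and 1515 there and 1467 and 1198 without a filter, with 1101 lower in DESeq2. In Clu intact against Nkx castrate, the 2 lower members became 1 with only the 4 libraries compared, and the 1121 lower genes became 739 there and 1736 without a filter.

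Leaving out each library in turn gave 0 to 3 members higher and 0 to 2 lower with castration (50 to 1163 and 110 to 1295 over all genes), 1 to 3 and 2 to 3 in Clu intact against Nkx intact (183 to 1761 and 125 to 1546), and 0 to 2 and 0 to 3 in Clu intact against Nkx castrate (359 to 1946 and 231 to 1812). Over these fits the log2 fold change of Notch3 ran from 2.36 to 3.02 with castration and from 2.17 to 2.82 in Clu intact against Nkx intact, and that of Dlk2 from -2.31 to -2.07 and from -3.77 to -2.84. Equal replicate numbers are not linked by the labels, and deviations of equal numbers correlated at 0.0901, 0.0437 and 0.235 across genes between pairs of groups. With a replicate block the members' counts were 2 higher and 2 lower with castration, 2 and 3, and 1 and 2, as without it, and the counts over all genes were 711 and 800, 1081 and 883, and 1469 and 1310. Depth limits Nrarp, where 1 count is up to 0.0988 CPM.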
